A study of Mus musculus with 30 samples.

Results

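Enzymes of liver steroid metabolism were followed across mutants of the growth hormone receptor. The set was chosen by name, with earlier results of these data known. It holds every probe whose platform gene symbol is Hsd3b5, Hsd3b2, Hsd3b3, Srd5a1, Hsd17b2, Hsd11b1, Akr1c6, Akr1d1, Cyp17a1 or Cyp7b1. Of the 10 genes listed, 9 had a probe, out of 19406 named genes, and these 9 genes had 15 of the 46643 probes. Hsd3b2 had 5 probes, Hsd3b3 and Hsd11b1 had 2 each and the other 6 genes had 1 each. No probe carried the symbol Srd5a1, which was not analysed here.

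Liver and subcutaneous fat were taken from male mice aged 4 months after an overnight fast. The 5 genotypes were a growth hormone receptor cut short at amino acid 569 (569), one cut short at amino acid 391 (391), one mutated in its Box1 region (Box1), removal of the receptor (KO) and wild type (WT), with 3 Illumina bead arrays per genotype in each tissue and 30 in all. The labels call the mutants transgenic and give neither the strain nor the way each allele was made. Nothing in them ties an array to an animal of its own, and the p-values below therefore reflect no more than the spread among these samples, part of which may be technical. Each deposited value is the ratio of a probe to its own median over the 15 arrays of its tissue, so it holds no absolute level, and the levels of different probes or tissues cannot be compared.

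As background, liver cells inactivate androgens, oestrogens, glucocorticoids and oxysterols with hydroxysteroid dehydrogenases, aldo-keto reductases and cytochromes P450. In rodents many of these enzymes differ between the sexes, and the pulses in which males release growth hormone keep up the male pattern. The receptor passes the signal on through the kinase JAK2, which binds at Box1, and through the transcription factor STAT5, which docks on tyrosines of the receptor's tail.

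The receptor gene itself did not follow the labels in liver. Ghr probe 2260156 lay at 0.23 to 0.30 in the livers labelled Box1, while it lay at 1.09 to 1.51 in the livers labelled KO and at 0.92 to 1.27 in WT livers. Against WT, it was lower in the livers labelled Box1 (log2 difference -2.05 ± 0.23 SE, limma adjusted p = 0.000205) and did not pass the test in those labelled KO (0.23 ± 0.23, adjusted p = 0.776). In fat this probe read 1.12, 0.29 and 0.46 in samples labelled KO and 1.43, 0.96 and 0.44 in those labelled Box1, against 1.09, 1.97 and 1.47 in WT. The differences in fat were -1.47 ± 0.55 for KO (adjusted p = 0.699), the lowest of the 4 mutants and in the direction of the label, and -0.80 ± 0.55 for Box1 (adjusted p = 1). The second Ghr probe, 100360095, passed the test in neither tissue in any mutant. In fat it ranked the mutants differently, with the smallest difference from WT in samples labelled KO (-0.64 ± 0.73). Its differences were -1.34 in 569, -1.95 in 391 and -1.16 in fat labelled Box1. Where these probes lie relative to the removed part of the gene was not used here, so a probe outside it would check nothing. The 2 groups are therefore written as labelled Box1 and labelled KO, and every direction given for either of them rests on these labels.

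Cells of other tissues were looked for with marker lists. Pancreatic acinar markers were more than 2-fold above the liver median for 12 of 12 measured markers in 391 liver replicate 2 and for 10 of 12 in 391 liver replicate 3 (mean log2 ratio 3.47 and 2.57), against means of -0.10 to 0.25 in the other livers. Skeletal muscle markers were also raised in 391 liver replicate 2, with 7 of 10 above 2-fold. Hepatocyte markers had mean log2 ratios of -0.45 to -0.04 in 569 livers, -0.05 to 0.30 in 391 livers, 0.10 to 0.18 in livers labelled Box1, -0.10 to 0.19 in livers labelled KO and -0.35 to -0.06 in WT livers. Adipocyte markers had mean log2 ratios of -0.21 to -0.12 in 569 livers, -0.03 to 0.25 in 391 livers, 0.07 to 0.14 in livers labelled Box1, -0.04 to 0.30 in livers labelled KO and -0.24 to -0.01 in WT livers. Of the 9 measured adipocyte markers, 1 was called against WT in each of 391, Box1 and KO by label and 0 in 569, and 1 of 10 hepatocyte markers was called in 391. The part of these markers in the results below was not tested. Markers of adrenal cortex and gonad, the main steroid-making tissues, stayed between -0.08 and 0.15 in all 15 livers, and none of the 10 was called in any mutant against WT. A ratio to a median cannot show whether a marker is absent, and the tissue identity of the samples was not checked by level.

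Hsd3b5, Hsd3b2 and Hsd3b3 lie next to each other on mouse chromosome 3, in this order in the RefSeq annotation of GRCm38.p6, with Hsd3b6 after them. The family is named for the 3-beta-hydroxysteroid dehydrogenases that make steroid hormones. In mouse liver Hsd3b5 is known instead as a reductase of 3-ketosteroids that marks male livers. The promoter windows of the 3 genes, 250 bases before to 50 bases after the start as given by RefSeq for GRCm38.p6, are printed because neighbours with related sequence gave different results below. They lie at chr3:98645485-98645784 for Hsd3b5, chr3:98763079-98763378 for Hsd3b3 and chr3:98724494-98724793 for Hsd3b2, all on the minus strand and written 5′ to 3′. Capitals in Hsd3b5 and Hsd3b3 mark the run of 24 bases that both windows hold, and capitals in Hsd3b2 mark the 31 bases, in runs of at least 12, that also occur in the Hsd3b5 window.
Hsd3b5: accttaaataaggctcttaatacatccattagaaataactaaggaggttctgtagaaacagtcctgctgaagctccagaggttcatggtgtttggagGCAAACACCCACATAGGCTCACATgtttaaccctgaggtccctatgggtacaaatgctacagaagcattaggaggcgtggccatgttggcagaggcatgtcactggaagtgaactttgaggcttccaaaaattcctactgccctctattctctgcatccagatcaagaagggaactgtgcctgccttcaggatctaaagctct
Hsd3b3: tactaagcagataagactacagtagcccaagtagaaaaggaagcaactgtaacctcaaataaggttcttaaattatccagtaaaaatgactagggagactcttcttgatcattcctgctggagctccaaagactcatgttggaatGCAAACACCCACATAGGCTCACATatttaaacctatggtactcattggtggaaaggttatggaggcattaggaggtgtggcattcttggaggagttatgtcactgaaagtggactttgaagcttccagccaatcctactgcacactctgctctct
Hsd3b2: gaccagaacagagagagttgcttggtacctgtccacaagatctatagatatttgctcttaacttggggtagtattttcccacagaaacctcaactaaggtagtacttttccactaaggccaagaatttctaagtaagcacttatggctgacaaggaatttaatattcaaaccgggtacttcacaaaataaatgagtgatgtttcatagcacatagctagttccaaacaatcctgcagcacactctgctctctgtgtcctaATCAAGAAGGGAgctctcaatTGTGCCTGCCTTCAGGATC
The STAT5 motif TTCNNNGAA, whose reverse complement is itself so that 1 search covers both strands, was found in none of the 7 listed genes with a window in the table, which were Hsd3b5, Hsd3b2, Hsd3b3, Srd5a1, Hsd11b1, Akr1c6 and Akr1d1. Srd5a1 has no probe here, and Cyp7b1, Cyp17a1 and Hsd17b2 were not searched. Of the 32851 windows of this length in the table, 2726 hold it (8.3%). The absence of these letters from 300 bases says nothing about the factor.

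Hsd3b5 was high in 569 and WT livers and near the liver median in every other liver. Its ratios were 2.14, 9.43 and 36.37 in 569 livers, 0.99, 0.98 and 1.06 in 391 livers, 1, 0.97 and 0.98 in livers labelled Box1, 0.88, 0.96 and 0.97 in livers labelled KO, and 4.18, 5.49 and 21.87 in WT livers. None of the 9 livers of the 3 lower groups reached the lowest 569 or WT liver. On the log2 scale the 569 group averaged 3.17 ± 2.04 (SD, n = 3) and the WT group 2.99 ± 1.28, while 391, Box1 and KO by label averaged 0.01 ± 0.06, -0.02 ± 0.02 and -0.10 ± 0.08. Signal over background was not used here, so whether these 9 livers gave any Hsd3b5 signal above background cannot be told.

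Hsd3b5 fell against WT in 391 livers (log2 difference -2.98 ± 0.72 SE, limma adjusted p = 0.0495) and in livers labelled KO (-3.09 ± 0.72, adjusted p = 0.0415), which is 7.87 times and 8.49 times lower. The livers labelled Box1 were lower by as much, at -3.01 ± 0.72, with an adjusted p of 0.0564, which missed the threshold of 0.05. The 569 livers differed from WT by 0.18 ± 0.72 (adjusted p = 0.988), with an interval from -1.36 to 1.72 that spans changes of more than 2-fold either way. Against 569 livers, Hsd3b5 fell in 391 (-3.16, adjusted p = 0.0212), in those labelled Box1 (-3.20, adjusted p = 0.0208) and in those labelled KO (-3.27, adjusted p = 0.0185).

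The Hsd3b5 calls against WT stood close to the threshold. The call in 391 livers was kept when WT replicate 1, 569 replicate 1 or 569 replicate 3 was left out, and it was lost without any 1 of the other 12 livers, with adjusted p from 0.0653 without KO replicate 3 to 0.211 without WT replicate 3. The call in livers labelled KO was lost without 9 of the 15 livers (WT replicates 2 and 3, 569 replicate 2, and each of the 6 labelled Box1 or KO; adjusted p 0.0572 to 0.170). The comparison of the livers labelled Box1 passed without WT replicate 1 (adjusted p = 0.0372), 569 replicate 1 (0.0079) or 569 replicate 3 (0.00991). It also passed in 4 of 10 alternatives. Among these were quantile normalization (limma adjusted p = 0.0198), array weights (0.0289) and the compared groups alone in the fit (0.0103). The difference stayed between -3.44 and -2.25 for 391, and between -3.55 and -2.36 for the livers labelled KO, in all 15 of these fits. The call in 391 against 569 was lost without 569 replicate 2, 569 replicate 3 or 391 replicate 1 (limma adjusted p 0.0614 to 0.0865). Those of Box1 and KO by label against 569 were lost without 569 replicate 2 or 3. They were also lost without any replicate of their own group (adjusted p over these losses 0.0532 to 0.0836).

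**Figure D1:**
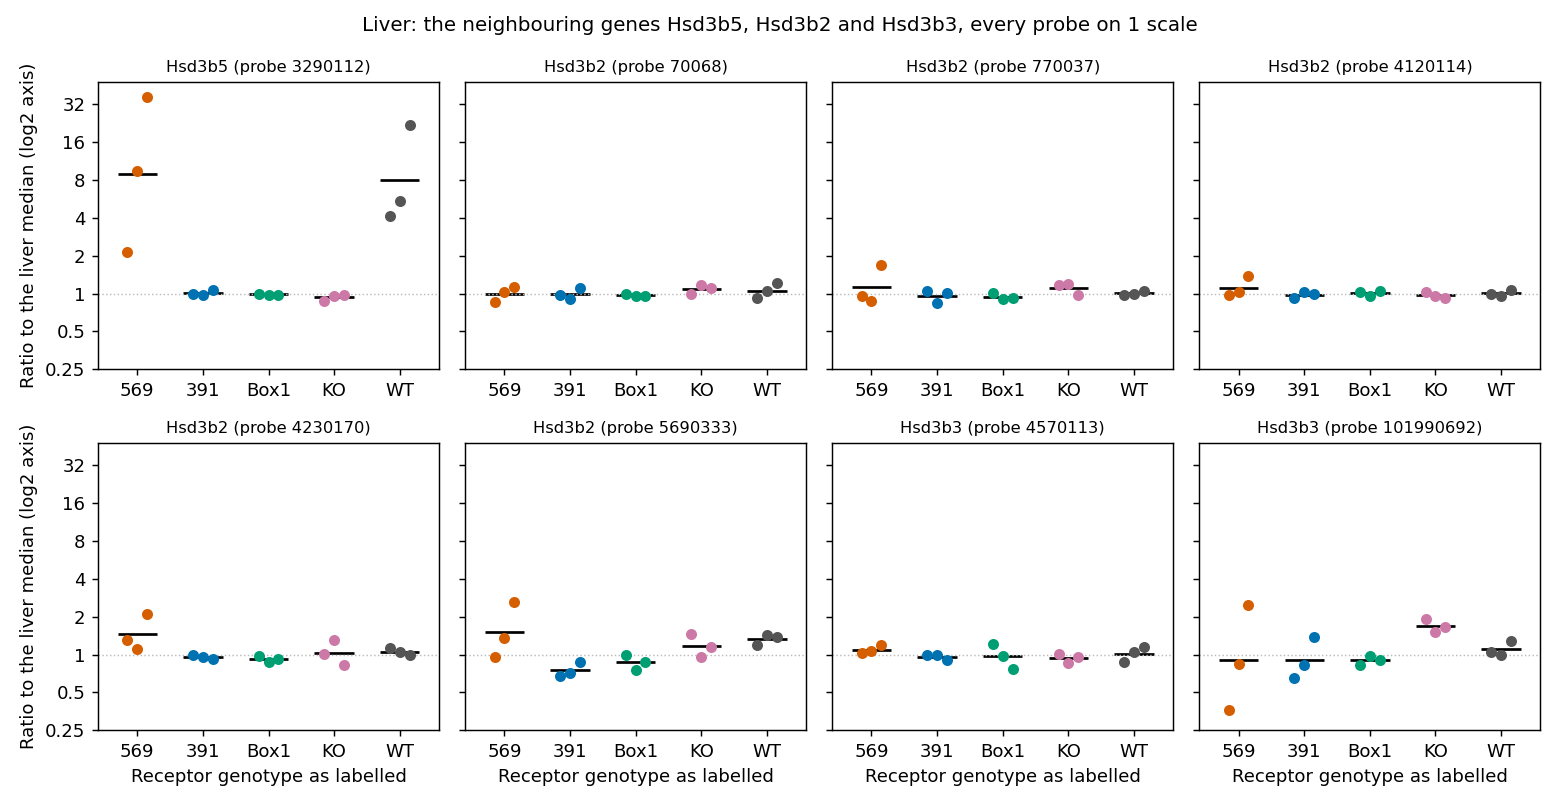
Ratio to the liver median (log2 axis) of every probe of Hsd3b5, Hsd3b2 and Hsd3b3 in the 15 livers, by receptor genotype as labelled, on 1 scale. Points are arrays and bars are means of log2 ratios. Hsd3b5 reaches 36.37 in a 569 liver and 21.87 in a WT liver and stays at 0.88 to 1.06 in 391, Box1 and KO livers, while the probes of its neighbours stay between 0.36 and 2.61.

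The 7 probes of the neighbours Hsd3b2 and Hsd3b3 differed far less between the groups. None passed the test in any mutant against WT. Hsd3b2 differences from WT lay between -0.84 and 0.46 over its 5 probes and 4 mutants, with adjusted p from 0.149 to 0.993. The most variable Hsd3b2 probe, 5690333, had ratios of 0.95, 1.36 and 2.61 in 569 livers, 0.67, 0.71 and 0.88 in 391 livers, 1, 0.75 and 0.87 in livers labelled Box1, 1.47, 0.96 and 1.15 in livers labelled KO, and 1.20, 1.43 and 1.39 in WT livers. All 391 and Box1-labelled livers lay below all WT livers for this probe, and the 569 and KO-labelled livers overlapped with WT. It fell in 391 against 569 livers (log2 difference -1.003, adjusted p = 0.042), and this call was lost without any 1 of 10 livers: WT replicates 2 and 3, 569 replicates 2 and 3, 391 replicates 1 and 2, KO replicate 3 and each Box1 replicate (adjusted p 0.0519 to 0.135). No other Hsd3b2 probe passed in 391 against 569, and the mean over its probes differed by -0.40 there (limma adjusted p = 0.156). Against WT, probe 5690333 passed in 391 livers without 569 replicate 3 (limma adjusted p = 0.023) and with the compared groups alone in the fit (0.0401). In livers labelled Box1 it passed with the compared groups alone (0.0275). No other alternative or fit without 1 liver gave a call of this probe against WT.

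Hsd3b3 differences from WT lay between -0.30 and 0.61 over 2 probes, with adjusted p from 0.676 to 0.956. Its more variable probe, 101990692, read 0.36, 0.84 and 2.46 in 569 livers, 0.65, 0.82 and 1.39 in 391 livers, 0.82, 0.97 and 0.91 in livers labelled Box1, 1.93, 1.52 and 1.65 in livers labelled KO, and 1.05, 1 and 1.29 in WT livers. The KO-labelled livers were all above the WT livers, and the spread within the 569 group exceeded that difference. The intervals of its differences from WT reached -1.28 and 1.59, beyond 2-fold either way. With the compared groups alone in the fit, this probe passed in livers labelled KO against WT (limma adjusted p = 0.0336). It then also passed against livers labelled Box1 (adjusted p = 0.00498). No other alternative or fit without 1 liver gave a call of this probe against WT. Members of this family are alike in sequence, and which transcript a given probe reads was not checked here.

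Cyp7b1 encodes the oxysterol 7-alpha-hydroxylase, which leads oxysterols into bile acid synthesis and also hydroxylates dehydroepiandrosterone. It split the livers as Hsd3b5 did, with less spread. The ratios were 3.22, 3.99 and 5.31 in 569 livers, 0.83, 0.55 and 1 in 391 livers, 0.81, 0.75 and 0.96 in livers labelled Box1, 1.01, 0.72 and 0.80 in livers labelled KO, and 5.27, 3.78 and 10.02 in WT livers. Every 569 and WT liver stood more than 3-fold above the liver median and no other liver exceeded 1.01.

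Cyp7b1 fell against WT in 391 livers (log2 difference -2.92 ± 0.29 SE, limma adjusted p = 6.39e-05), in livers labelled Box1 (-2.81 ± 0.29, adjusted p = 9.5e-05) and in livers labelled KO (-2.81 ± 0.29, adjusted p = 8.18e-05), or 6.99 to 7.59 times lower. The difference of 569 from WT was -0.52 ± 0.29 (adjusted p = 0.795), with an interval from -1.14 to 0.11. Against 569, the difference was -2.41 in 391 (adjusted p = 0.000443), -2.29 in those labelled Box1 (adjusted p = 0.000716) and -2.29 in those labelled KO (adjusted p = 0.000546). In the order of the levels, WT and 569 did not differ beyond their spread, nor did those labelled Box1, those labelled KO and 391, and the step between 569 and the other 3 groups passed the test. None of the 6 calls was lost when any 1 of the 15 livers was left out.

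Cyp17a1, the steroid 17-alpha-hydroxylase and lyase that makes androgen precursors in gonad and adrenal, moved in the opposite direction. Its ratios were 1.04, 0.42 and 0.19 in 569 livers, 2.28, 1.31 and 2.80 in 391 livers, 0.71, 0.81 and 1 in livers labelled Box1, 1.28, 2.66 and 1 in livers labelled KO, and 0.24, 0.13 and 0.21 in WT livers. All 9 livers of 391, Box1 and KO by label lay above all 3 WT livers. The 569 livers ran across the gap, with 1 liver inside the WT range, 1 between and 1 above all livers labelled Box1.

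Against WT, Cyp17a1 rose by 3.44 ± 0.49 (SE) in 391 livers (limma adjusted p = 0.00183), by 2.15 ± 0.49 in livers labelled Box1 (adjusted p = 0.0435) and by 3.01 ± 0.49 in livers labelled KO (adjusted p = 0.00417), folds of 10.8, 4.44 and 8.04. In 569 livers the difference was 1.22 ± 0.49 (interval 0.18 to 2.26, adjusted p = 0.649). Against 569 it rose in 391 by 2.22 (adjusted p = 0.0176), and the differences of 1.79 in livers labelled KO (adjusted p = 0.053) and 0.93 in those labelled Box1 (adjusted p = 0.361) missed the threshold. From high to low the mean levels ran 391, KO and Box1 by label, 569 and WT, and no 2 neighbours in this order passed the test (adjusted p 0.890, 0.675, 0.361 and 0.649).

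The calls of Cyp17a1 against WT in 391 livers and in those labelled KO held without any 1 of the 15 livers. The call in livers labelled Box1 was lost without any 1 of 7 livers: WT replicates 2 and 3, 569 replicate 2, KO replicate 1 and each of the Box1 livers (adjusted p 0.0612 to 0.194). The call against 569 in 391 livers was lost without 569 replicate 2, 569 replicate 3, 391 replicate 1 or 391 replicate 3 (adjusted p 0.0541 to 0.0762). Against 569, the livers labelled KO passed without 569 replicate 1, 391 replicate 2 or 391 replicate 3 (limma adjusted p 0.00654 to 0.0466). They also passed with array weights (0.0436) and with only probes of 1 symbol (0.0454). The livers labelled Box1 passed against 569 without 569 replicate 1 (0.0481). The 391 livers with raised pancreatic markers, replicates 2 and 3, read 1.31 and 2.80 and the remaining 391 liver read 2.28. The mean log2 ratio of the adrenal and gonad markers was -0.08 to -0.02 in 569 livers and -0.04 to 0.04 in 391 livers. It was -0.04 to 0.04 in livers labelled Box1, 0.09 to 0.15 in livers labelled KO and -0.02 to 0.07 in WT livers. For these markers the livers labelled KO lay above WT, those of 391 and Box1 by label overlapped with WT, and the 569 livers did not exceed WT. The mean of Cyp17a1 was above WT in all these mutants. The part of these markers in the Cyp17a1 result was not tested.

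**Figure D2:**
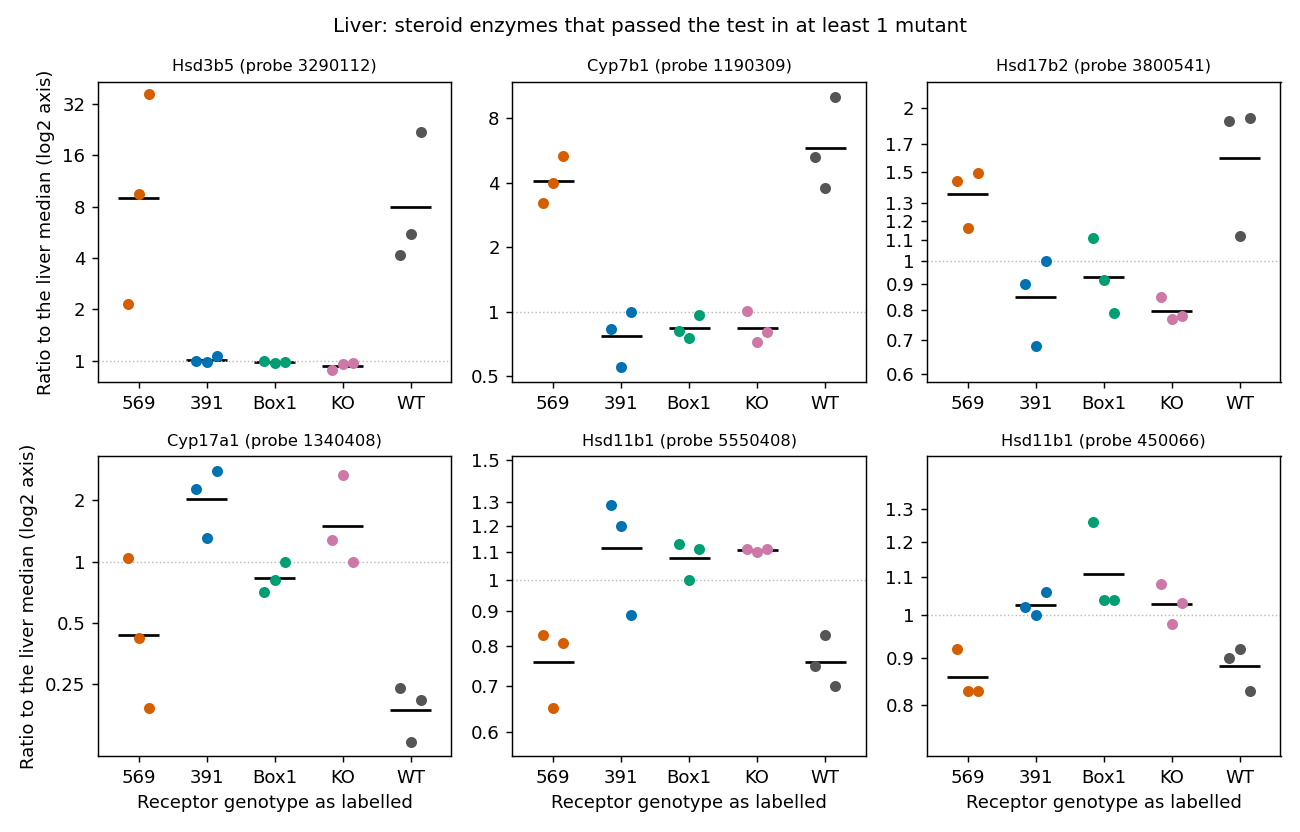
Ratio to the liver median (log2 axes, 1 range per panel) in the 15 livers for the members called in at least 1 mutant against WT, by receptor genotype as labelled. Points are arrays and bars are means of log2 ratios. Hsd3b5, Cyp7b1 and Hsd17b2 lie highest in 569 and WT livers, and both Hsd11b1 probes lie lowest there. Cyp17a1 has its lowest means there, though 569 replicate 1, at 1.04, lies above all livers labelled Box1.

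Hsd17b2 encodes the dehydrogenase that oxidises oestradiol to oestrone and testosterone to androstenedione. It was lower in 391 livers and in those labelled KO, by a smaller step than Cyp7b1. Its ratios were 1.44, 1.16 and 1.49 in 569 livers, 0.90, 0.68 and 1 in 391 livers, 1.11, 0.92 and 0.79 in livers labelled Box1, 0.85, 0.77 and 0.78 in livers labelled KO, and 1.89, 1.12 and 1.91 in WT livers. WT replicate 2, at 1.12, was far below the other WT livers and just above the highest Box1-labelled liver, at 1.11.

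Hsd17b2 fell against WT in 391 livers (log2 difference -0.91 ± 0.19 SE, limma adjusted p = 0.0263) and in livers labelled KO (-0.995 ± 0.19, adjusted p = 0.0145), or 1.88 and 1.99 times lower. The difference of -0.78 ± 0.19 in livers labelled Box1 had an adjusted p of 0.0672, and the 569 livers differed by -0.23 ± 0.19 (adjusted p = 0.888). Against 569, only the livers labelled KO passed the test (-0.76, adjusted p = 0.0374), against -0.67 in 391 (adjusted p = 0.0624) and -0.54 in those labelled Box1 (adjusted p = 0.137). The call in 391 was lost without WT replicate 1, WT replicate 3, 391 replicate 1 or 391 replicate 2 (adjusted p 0.0573 to 0.124), and that in livers labelled KO without WT replicate 1, WT replicate 3, KO replicate 2 or KO replicate 3 (adjusted p 0.0532 to 0.075). Without WT replicate 2 or 391 replicate 2, the livers labelled Box1 passed too (adjusted p = 0.00925 and 0.0448). They also passed in 2 of 10 alternatives, 1 of them quantile normalization (limma adjusted p = 0.0355). The call of the KO-labelled livers against 569 was lost without any 569 or KO replicate or without Box1 replicate 2 (adjusted p 0.0518 to 0.126).

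Hsd11b1 encodes the reductase that regenerates active corticosterone from its inactive 11-keto form. It rose slightly by 1 probe and missed the threshold by the other. Probe 5550408 read 0.83, 0.65 and 0.81 in 569 livers, 1.29, 1.20 and 0.89 in 391 livers, 1.13, 1 and 1.11 in livers labelled Box1, 1.11, 1.10 and 1.11 in livers labelled KO, and 0.75, 0.83 and 0.70 in WT livers. No liver of 391, Box1 or KO by label was as low as any 569 or WT liver.

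By this probe Hsd11b1 rose against WT by 0.55 ± 0.13 (SE) in 391 livers (limma adjusted p = 0.0388) and by 0.55 ± 0.13 in livers labelled KO (adjusted p = 0.0413), a fold of 1.47 and 1.46. In livers labelled Box1 the difference was 0.51 ± 0.13 (adjusted p = 0.0682). Against 569 it rose in all 3 groups, by 0.55 in 391, 0.51 in those labelled Box1 and 0.54 in those labelled KO (adjusted p = 0.0223, 0.0336 and 0.0253). The second probe, 450066, differed from WT by 0.22, 0.33 and 0.22 in 391, Box1 and KO by label (adjusted p = 0.299, 0.0864 and 0.275), and against 569 it passed in the livers labelled Box1 alone (0.37, adjusted p = 0.026).

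The Hsd11b1 calls against WT were lost often when 1 liver was left out. In 391 the call was lost without any 1 of 11 livers, which were all but the 569 replicates and 391 replicate 3 (adjusted p 0.0506 to 0.161). In livers labelled KO it was lost without any 1 of 9, which were the WT, Box1 and KO replicates (adjusted p 0.0516 to 0.155). The Box1-labelled livers passed without 391 replicate 1 (adjusted p = 0.0407) or 391 replicate 3 (0.0193). They also passed in 4 of 10 alternatives. Among these were array weights (limma adjusted p = 0.0437), the compared groups alone in the fit (0.0276) and the mean over the probes (0.0338). Of the calls against 569, that of 391 was lost without 569 replicate 2, 391 replicate 1 or 391 replicate 2, that of Box1 without 569 replicate 2, 569 replicate 3 or any Box1 replicate, and that of KO without 569 replicate 2 or any KO replicate (adjusted p 0.0623 to 0.171).

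Akr1c6, a 17-beta-hydroxysteroid dehydrogenase of mouse liver that reduces androstenedione to testosterone, and Akr1d1, the 5-beta-reductase of steroids and bile acid precursors, passed no test in liver. Akr1c6 read 0.99, 1 and 1.49 in 569 livers, 0.85, 0.83 and 1.02 in 391 livers, 0.92, 1 and 1.09 in livers labelled Box1, 0.95, 0.96 and 1.06 in livers labelled KO, and 1.32, 0.98 and 1.15 in WT livers. Its differences from WT ran from -0.35 to 0.00 with intervals inside -0.67 and 0.31, and each mutant group overlapped with WT. Akr1c6 lies between Akr1c12 and Akr1c20 in a family of like sequence, so its probe is uncertain as to the copy measured.

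The Akr1d1 ratios ran from 0.88 to 1.27 in 569 livers, 0.99 to 1 in 391 livers, 0.93 to 0.99 in livers labelled Box1, 1.01 to 1.10 in livers labelled KO and 0.86 to 1.09 in WT livers. Its differences from WT lay between -0.06 and 0.16, and the intervals of all 4 stayed between -0.32 and 0.42.

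Counted by gene, with the probe of largest spread standing for a gene that has several, 5 of 9 members were called in 391 livers against WT, with 2 up and 3 down, where 1.91% of all probes were called (1.48% up, 0.427% down). In livers labelled KO the count was also 5 of 9, again 2 up and 3 down, beside 1.93% of all probes (1.44% up, 0.489% down). In livers labelled Box1 it was 2 of 9, 1 up and 1 down, beside 1.32% (1.06% up, 0.264% down). In 569 livers it was 0 of 9 beside 0.00858%, and 1 of 9 members had an unadjusted p under 0.05, as had 7.01% of all probes. The members' median difference from WT was 0.00 in 569, -0.35 in 391, -0.30 in those labelled Box1 and -0.19 in those labelled KO, against -0.02, 0.02, 0.02 and 0.01 for all probes. These comparisons share their WT livers. The choice of the probe with the largest spread can favour probes that differ between groups, and the shares of all probes hold no such choice. The members were also listed with earlier results of these data known, so these counts are a description and not an independent test. Counted by probe, 5 of the 15 member probes were called in 391, 2 in Box1 and 5 in KO by label, and 0 in 569.

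The 391 results were also computed without the pair of livers with raised pancreatic markers, which leaves 1 liver that is assumed to vary like the other groups. Cyp7b1 (-2.82, limma adjusted p = 0.00202), Cyp17a1 (3.61, adjusted p = 0.012) and Hsd11b1 (0.77, adjusted p = 0.0126) were still called against WT. Hsd3b5 (-3.005, adjusted p = 0.182) and Hsd17b2 (-0.82, adjusted p = 0.119) were not, at differences close to those with all 3 livers.

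Among the mutants, 5 of 9 members were called in 391 against 569, 3 in those labelled Box1 against 569 and 4 in those labelled KO against 569, beside 4.7%, 4.95% and 4.29% of all probes. No member was called in Box1 against 391, in KO against 391 or in KO against Box1 by label, beside 0.00429%, 0.18% and 0.148% of all probes, and 1, 1 and 0 members had an unadjusted p under 0.05 there, as had 6.08%, 8.19% and 8.71% of all probes. A swap of the Box1 and KO labels would exchange 2 groups between which no member was called in the fit of all 15 livers. With 3 arrays in a group, that lack of a call does not show the groups to be alike. The swap would also exchange their counts against WT, 2 of 9 and 5 of 9. The calls of Hsd3b5, Hsd17b2 and Hsd11b1 against WT would then belong to Box1. The Cyp17a1 differences from WT, 2.15 in Box1 and 3.01 in KO by label, would change places.

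Slide and genotype overlap. Per the labels, WT and 569 livers shared a slide, 391 and KO livers shared another and the Box1 livers lay on a slide with the Box1 fat samples. The comparisons of 569 with WT and of KO with 391 were made within a slide, and no member was called in either. For every other comparison above, slide and genotype cannot be told apart. Within the set, 569 liver replicate 3 was the highest of the 15 livers for 8 of the 15 probes. These were in Hsd3b5, Hsd3b2, Hsd3b3, Akr1c6 and Akr1d1, and several of them were probes of Hsd3b2 alone. How often this array was the highest over all probes was not counted, so the 8 cannot be read as particular to the set.

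**Figure D3:**
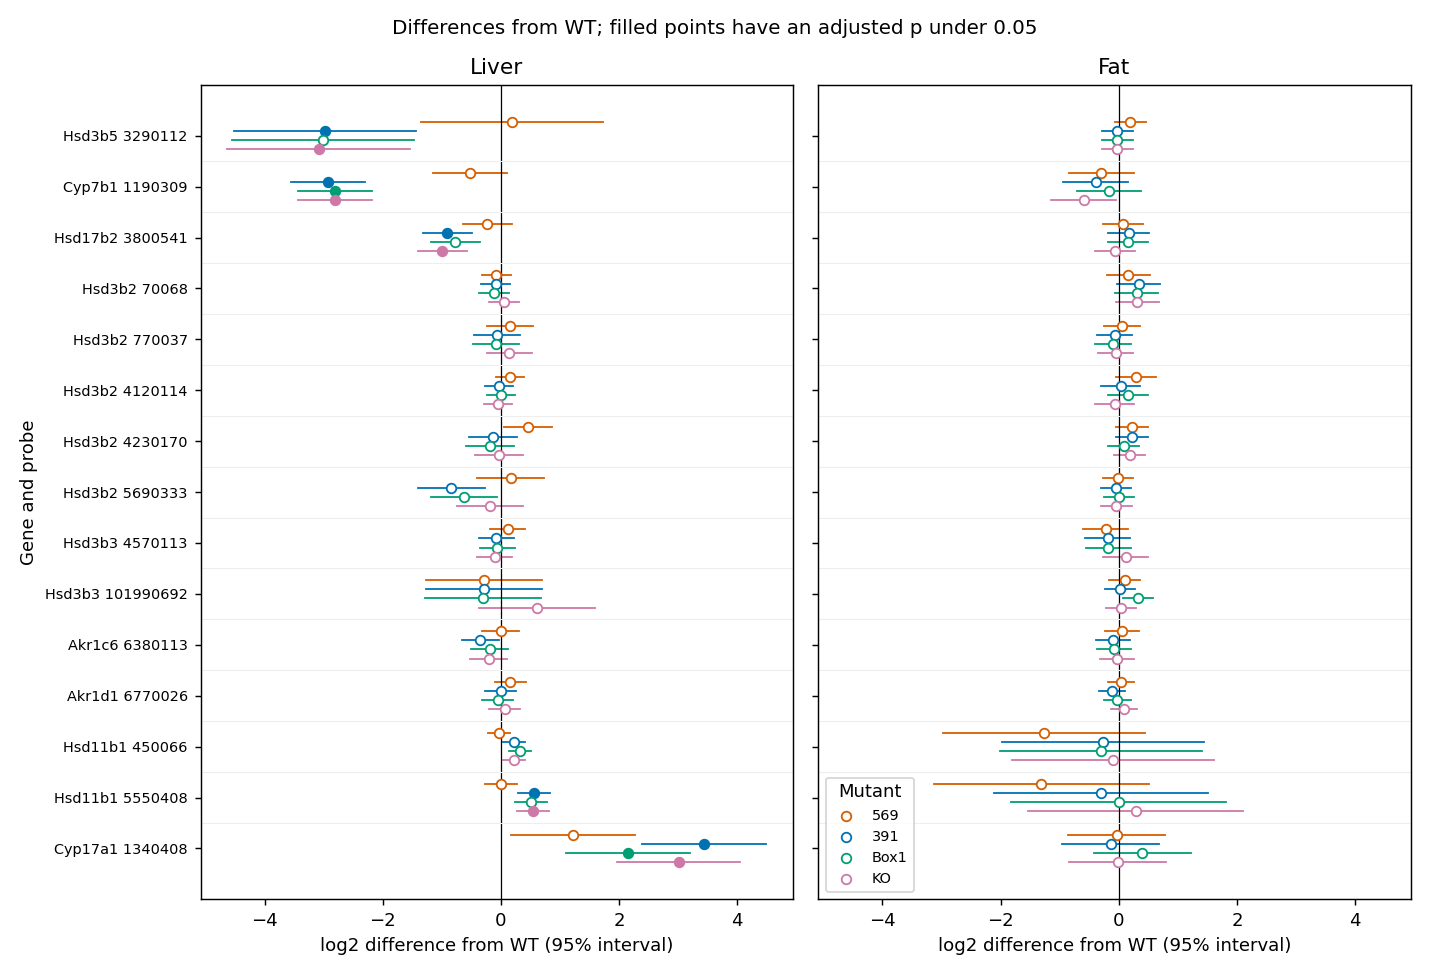
Difference from WT on the log2 scale (horizontal axis) for the 15 probes of the 9 members in the 4 mutants as labelled, in liver and in fat. Points are estimates from the limma fits, filled where the adjusted p is under 0.05, and lines are their 95% intervals. In liver Hsd3b5, Cyp7b1 and Hsd17b2 lie below 0 and Cyp17a1 and Hsd11b1 above 0 in 391, Box1 and KO, and no point in fat is filled.

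In subcutaneous fat no member was called in any mutant against WT, beside 0%, 0.0129%, 0.00214% and 0% of all probes in 569, 391, Box1 and KO by label. At an unadjusted p under 0.05 the counts were 0, 0, 0 and 1 of 9, beside 8.96%, 4.58%, 4.54% and 6.24% of all probes, and the 1 was Cyp7b1 in fat labelled KO. Without the 3 fat samples that stood apart (569 replicate 3, Box1 replicate 2 and WT replicate 2, described below), 281 probes were called in fat labelled KO, 18 in fat labelled Box1 and 7 in 569 fat, against 0, 1 and 0 with all samples. Hsd3b5 stayed between 0.82 and 1.17 in all 15 fat samples. Cyp7b1 in fat read 1.31, 1.01 and 0.71 in 569, 1.11, 0.85 and 0.81 in 391, 1.22, 1.22 and 0.83 in Box1, 0.91, 0.79 and 0.70 in KO by label, and 1.05, 1 and 1.65 in WT. Its difference from WT in fat labelled KO was -0.59 ± 0.25 (SE, limma adjusted p = 0.767), with all 3 samples below all WT samples, and 1 such member in 9 is not read as a difference.

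The difference between tissues was tested as such. For Cyp7b1 the difference from WT was lower in liver than in fat, with liver minus fat at -2.53 ± 0.42 (SE) in 391 (limma adjusted p = 0.00379), -2.64 ± 0.42 in Box1 (adjusted p = 0.0027) and -2.21 ± 0.42 in KO by label (adjusted p = 0.015). With a trended and robust variance all 3 calls were lost (adjusted p = 0.191, 0.217 and 0.215), and the call in 391 was also lost with the compared groups alone in the fit (adjusted p = 0.0705). For Cyp17a1 it was higher in liver than in fat by 3.58 ± 0.68 in 391 (adjusted p = 0.0159), and the values of 3.03 in KO (adjusted p = 0.0529) and 1.75 in Box1 by label (adjusted p = 0.783) missed the threshold. The Cyp17a1 test in KO passed with the compared groups alone in the fit (limma adjusted p = 0.0076) and with array weights (0.0231). It also passed without the 3 fat samples that stood apart (0.0183) and without Box1 fat replicate 2 alone (0.0163). Whether it passed thus depended on these choices. For Hsd3b5 the test of -2.95 in 391, -2.99 in Box1 and -3.06 in KO gave adjusted p of 0.243, 0.348 and 0.157. The 3 Hsd3b5 tests passed without 569 liver replicate 1 (adjusted p = 0.0234, 0.0279 and 0.0171) and without 569 liver replicate 3 (0.0315, 0.0394 and 0.021). That in KO also passed with quantile normalization (0.042) and with the compared groups alone in the fit (0.0452), so whether the Hsd3b5 difference was larger in liver than in fat depended on these choices. Members called were 2 of 9 in 391, 1 in Box1, 1 in KO by label and 0 in 569, beside 0.227%, 0.148%, 0.341% and 0% of all probes, and 0 members had an unadjusted p under 0.05 in 569, against 7.75% of all probes. Without the 3 fat samples that stood apart, the probes called numbered 287 in Box1 and 860 in KO by label, against 69 and 159 with all samples.

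Single fat samples stood apart for 2 members. Hsd11b1, which adipocytes make, read 1.25, 1.06 and 0.06 by probe 5550408 and 1.18, 1.11 and 0.07 by probe 450066 in fat of the 569 mutant, against 1, 1.25 and 0.97 and 0.95, 1.35 and 1 in WT fat. In the low sample, 569 replicate 3, all 9 measured adipocyte markers were at less than 0.5 of the fat median (mean log2 ratio -2.56) and skeletal muscle markers averaged 4.56. Cyp17a1 read 0.81, 3.24 and 1 in fat labelled Box1, against 0.86, 1.25 and 1.06 in WT fat, and in the high sample, Box1 replicate 2, the hepatocyte markers averaged 2.12, with 5 of 10 above 2-fold. Without these samples and WT fat replicate 2, the difference from WT was 0.22 for Hsd11b1 in 569 and -0.09 for Cyp17a1 in fat labelled Box1, against -1.31 and 0.40 with all samples, and none of the 4 passed the test (limma adjusted p 0.649 to 1). That WT sample also had raised hepatocyte markers (mean 1.28), and muscle markers ran from -2.79 to 4.56 over the fat samples, with the 3 WT samples at -2.79 to -1.84. In a bulk sample fewer cells of a type and less RNA per cell cannot be told apart.

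**Figure D4:**
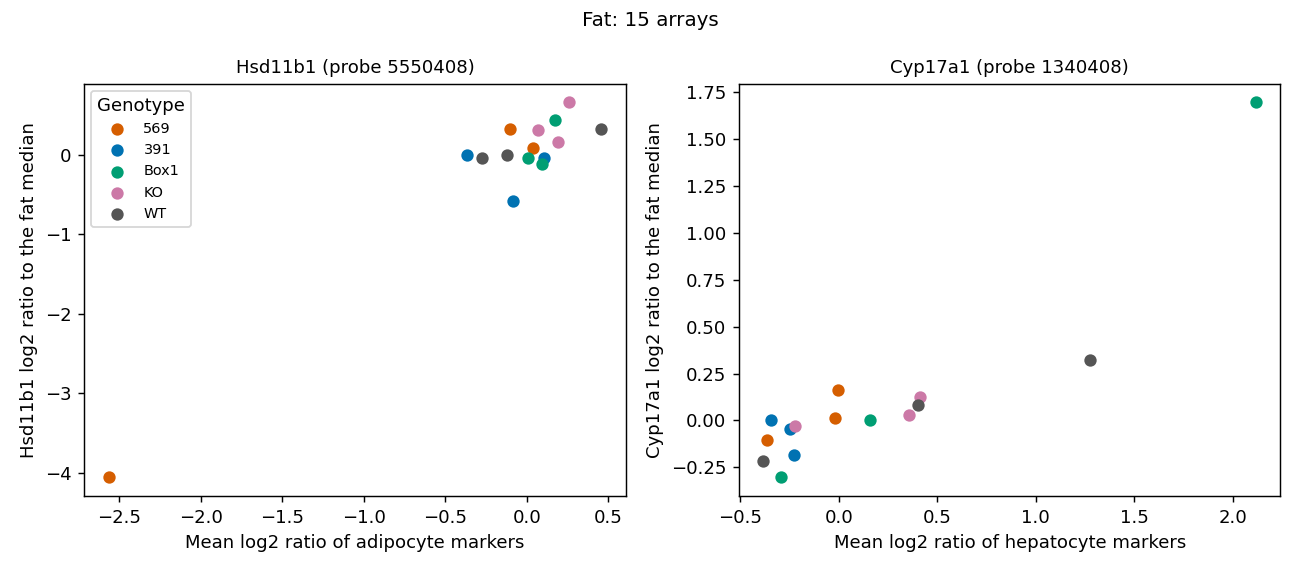
Each fat sample's log2 ratio of a member (vertical axis) against the mean log2 ratio of a marker list (horizontal axis), with 1 point per sample coloured by genotype as labelled. Hsd11b1 is lowest in the 569 sample whose adipocyte markers average -2.56, and Cyp17a1 is highest in the Box1 sample whose hepatocyte markers average 2.12.

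Other genes of steroid metabolism were described from lists that hold 56 genes, of which 45 were measured. In liver against WT, 0 of 45 were called in 569, 2 in 391 (1 up, 1 down), 2 in those labelled Box1 (both up) and 2 in those labelled KO (both up), beside 0.00858%, 1.91%, 1.32% and 1.93% of all probes. In fat 0 of 45 were called in any mutant, beside 0%, 0.0129%, 0.00214% and 0% of all probes. The median difference of the 45 in liver was -0.08, -0.05, 0.00 and -0.03 in these 4 groups. No gene was called among the 7 other aldo-keto and 5-alpha reductases or the 5 genes of redox partners and NADPH supply.

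Hsd17b6, which oxidises androstanediol back towards dihydrotestosterone, was the only 1 of 15 other hydroxysteroid dehydrogenases called. It read 0.50, 0.49 and 0.36 in 569 livers, 1, 0.88 and 1.67 in 391 livers, 2.09, 1.57 and 1.28 in livers labelled Box1, 1.84, 2.31 and 2.02 in livers labelled KO, and 0.56, 0.51 and 0.87 in WT livers. Hsd17b6 rose against WT by 1.70 ± 0.24 in livers labelled KO (SE, limma adjusted p = 0.00154) and by 1.36 ± 0.24 in those labelled Box1 (adjusted p = 0.0111), and differed by 0.85 ± 0.24 in 391 (adjusted p = 0.104).

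Cyp39a1, which hydroxylates 24-hydroxycholesterol, was the only 1 of 10 other steroid and sterol P450s called. Its probe 1170020 read 0.62, 0.46 and 0.39 in 569 livers, 1.84, 2.14 and 1.04 in 391 livers, 1.31, 1.09 and 2.08 in livers labelled Box1, 1, 1.47 and 0.89 in livers labelled KO, and 0.46, 0.44 and 0.45 in WT livers. Cyp39a1 rose against WT by 1.83 in 391 (limma adjusted p = 0.00272), by 1.68 in those labelled Box1 (adjusted p = 0.00532) and by 1.28 in those labelled KO (adjusted p = 0.0243), so this oxysterol hydroxylase and Cyp7b1 moved in opposite directions. By its second probe, 5220722, the rise passed in 391 alone (0.50, adjusted p = 0.0109). Among 8 steroid receptors and partners, the progesterone receptor gene Pgr fell in 391 by 1 of its probes (-0.43 ± 0.09, adjusted p = 0.0224) and did not pass by the other (-0.09, adjusted p = 0.797).

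**Figure D5:**
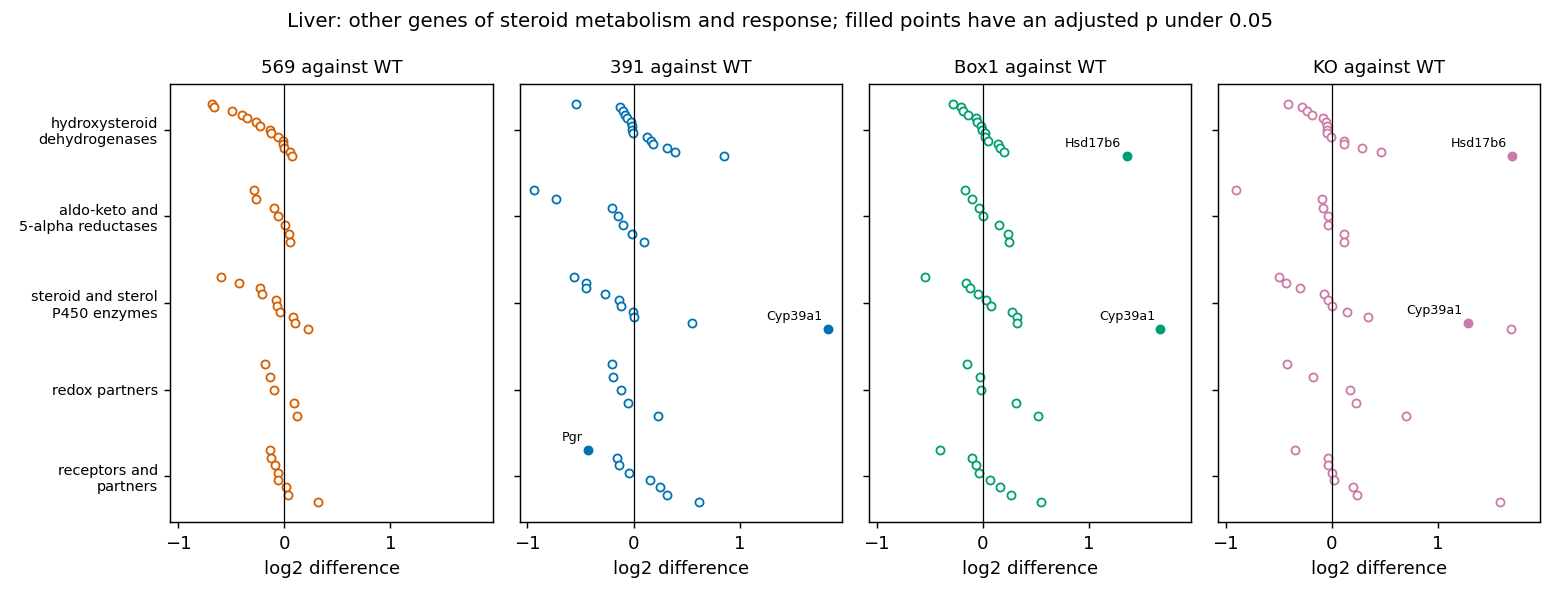
Log2 difference from WT in liver (horizontal axis) of the 45 other measured genes of steroid metabolism and response, by list (vertical axis), in each mutant as labelled. Points are genes, filled and named where the adjusted p is under 0.05. Hsd17b6, Cyp39a1 and Pgr are the genes filled, with differences from -0.43 for Pgr in 391 to 1.83 for Cyp39a1 in 391.

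Genes outside the set were ranked by likeness to a member, as the root mean square difference of log2 ratios over the 15 livers. The closest to Hsd3b5 were the organic anion transporter Slco1a1 (0.88), Igfals (0.89), whose product is part of the complex that carries IGF-I in blood, and Susd4 (0.92). The closest to Cyp7b1 were the complement gene C6 (0.35), Nat8 (0.40) and Susd4 (0.50). To Hsd17b2 they were Mbl1 (0.21), Shfl (0.24) and Dpp7 (0.25), and to Hsd11b1 they were Kctd12 (0.11), Dnajc5 (0.13) and Gsto1 (0.13). The closest to Cyp17a1 were the transporter Slco1a4 (0.72) and the metallothioneins Mt1 (0.75) and Mt2 (0.77), which differed from WT in 569 livers by 2.28 for Mt1 and 1.42 for Mt2, against 1.22 for Cyp17a1. The measure grows with the spread of the member, so it orders genes for 1 member and not between members.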

How the data were processed

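Per the labels' protocols, total RNA of frozen tissue was purified on columns and hybridised, with a biotin label, to Illumina bead arrays. The authors deposited 1 table with a ratio for each of 46643 probes in 30 arrays. From the values, each deposited ratio is relative to the probe's median over the 15 arrays of a tissue, since that median was 1 for all 46643 probes in liver and in fat. Array medians lay between 0.98 and 1.01. How background and normalization were handled is not given in the sources used here. Signal over background is therefore unknown, and precision is limited by having 3 arrays in a group.

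Log2 ratios, with no offset and no filter, were tested with limma 3.58.1 under R 4.3.3 (lmFit, then contrasts.fit and eBayes). Each tissue had 1 model of its 5 genotypes, and a model of the 30 arrays together served the differences between tissues. Tests were two-sided, with Benjamini-Hochberg adjustment over the 46643 probes. A probe with an adjusted p under 0.05 is called. The fit was tested on simulated data. Errors of differences are standard errors, intervals are 95% intervals without adjustment, and errors of group means are SDs over 3 arrays. The ranges of adjusted p without 1 array come from refits of the same model.

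Gene symbols came from the annotation of the platform, in which 32794 probes have 1 symbol, 55 have more than 1 and 13794 have none. Every probe of a member was described, and the probe with the largest SD in the tissue stood for a gene with several. Other genes were named where a gene of a pathway list was called in liver against WT, up to 6 per list, and as the 3 genes closest to each member called in at least 2 liver comparisons with WT. The values of Ghr were added after the data had been seen. Members and lists were chosen with earlier results of these data known. Promoter windows were to be printed where they held the STAT5 motif. None did, and the 3 Hsd3b windows were chosen for printing after that search. The comparison of Hsd3b proteins that had been planned was not made.

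Replicates were numbered in the order of the samples, and these numbers pair nothing. Alternatives were other normalizations, array weights, variance models, offsets, probe filters, rules for several probes, and fits without arrays. The fits without 3 fat arrays were added after the data had been seen.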

Additional observations from a re-analysis of the deposited data

Results flagged for a closer look

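In 4 results the difference of a mutant from WT differed between liver and fat by a test of that difference, adjusted over all 46643 probes. For Cyp7b1 the liver difference minus the fat difference was -2.53 in 391 (limma adjusted p = 0.00379), -2.64 in Box1 by label (adjusted p = 0.0027) and -2.21 in KO by label (adjusted p = 0.015). In the refits without 1 array, the Cyp7b1 value in 391 and that in Box1 kept the call without any 1 of the 30 arrays. The value in KO lost it without WT fat replicate 1 (adjusted p = 0.0591) or KO liver replicate 2 (adjusted p = 0.0549). For Cyp17a1 the value was 3.58 in 391 (adjusted p = 0.0159), and the call was lost without 391 liver replicate 3 (0.0523), 391 fat replicate 1 (0.0512), WT liver replicate 2 (0.0658) or WT fat replicate 2 (0.0588). With a trended and robust variance the Cyp7b1 calls were lost (adjusted p = 0.191, 0.217 and 0.215 in 391, Box1 and KO). With the compared groups alone in the fit the Cyp7b1 call in 391 was lost too (adjusted p = 0.0705), and without both 391 livers that had raised pancreatic markers the Cyp17a1 call was lost (adjusted p = 0.0817). All 4 results rest on 3 arrays per group in each tissue. The 391 and WT arrays lay on different slides in both tissues, as did those labelled Box1 or KO and WT.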

How the results depend on the processing

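No paired analysis was possible because the labels give the arrays no replicate numbers. Over 12 alternatives and the fits without 1 array, no called member changed direction, and 122 of 162 single-member results neither lost nor gained a call. Most of those 162 results were not called with the settings used above, so this number does not measure how firm the calls are. The calls never lost were those of Cyp7b1 in 391, Box1 and KO against WT and against 569. Those of Cyp17a1 in 391 and KO against WT were never lost either. Every other call among these results was lost at least once. With the settings used above, members called (of 9) were 5, 2 and 5 in 391, Box1 and KO against WT in liver, 5 in 391 against 569, 0 in KO against Box1, and 2, 1 and 1 in 391, Box1 and KO for liver minus fat. With only the compared groups in the fit they were 3 and 5 in 391 and Box1 against WT, 1 in 391 against 569, 1 in KO against Box1, and 1 and 3 in 391 and KO for liver minus fat. With a trended and robust variance they were 3, 1 and 3 against WT, and 1, 0 and 0 for liver minus fat. Without both 391 livers with pancreatic markers they were 3 and 5 in 391 and Box1 against WT, 2 in 391 against 569 and 1 in 391 for liver minus fat. Array weights gave 4 in Box1 against WT, and an offset of 0.05 gave 1. For liver minus fat in KO the count was 2 with array weights, quantile normalization, median centring, probes of 1 symbol or without the 3 fat arrays that stood apart (569 replicate 3, Box1 replicate 2 and WT replicate 2). The causes were not tested.

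Without 1 array the counts ran from 2 to 6, 1 to 3 and 2 to 5 in 391, Box1 and KO against WT, from 1 to 5 in each of these against 569, and from 1 to 3, 1 to 2 and 0 to 3 for liver minus fat. Among single members, the 3 Cyp7b1 calls and the Cyp17a1 calls in 391 and KO against WT were lost in no alternative. The Hsd3b5 call in 391 was lost in 5 of 10, Cyp17a1 in Box1 in 4 of 10, and Hsd17b2 and Hsd11b1 in 391 in 2 of 10 each. The number of probes called ran from 260 to 1302 (890 with the settings used above) in 391 against WT, from 390 to 1168 (616) in Box1 and from 677 to 1418 (899) in KO over the alternatives.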
